A study of Homo sapiens with 32 samples.

Results

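The fibroblast growth factor (FGF) genes followed here are the ligands FGF2 and FGF4, the receptors FGFR1 to FGFR4, the Sprouty genes SPRY1, SPRY2 and SPRY4, and the phosphatase gene DUSP6. They were chosen by symbol, and all 10 were found among the 61541 genes of the deposited table. They were measured as polyadenylated RNA in 2 human germ cell cancer lines, NTera2, which comes from an embryonal carcinoma, and TCam-2, which comes from a seminoma. Each line received D-PBS vehicle, RANKL, OPG or denosumab for 48 h, and RANKL and OPG were used at 1 µg/ml. RANKL acts on the receptor RANK, and both OPG, a soluble decoy receptor, and denosumab, an antibody, bind RANKL. Denosumab is named in titles and treatment labels, whereas the protocol names RANKL again in its place and gives no dose for denosumab, so those libraries are described by their labels. The 8 groups held 4 libraries each, 1 from each of 4 experiments per line, at passages 27, 29, 30 and 31 for NTera2 and 118, 120, 121 and 122 for TCam-2. Replicates 1 to 4 are listed in that order below.

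FGF ligands bind FGF receptors, which are tyrosine kinases, together with heparan sulfate, and the activated receptors signal through the RAS-ERK cascade. ERK signalling induces its own inhibitors: Sprouty proteins dampen the pathway upstream, and DUSP6 is a cytoplasmic phosphatase that removes phosphate from ERK. FGF4 is an autocrine factor of pluripotent and embryonal carcinoma cells and is known as a target of POU5F1 acting with SOX2, and FGF2 is widely used to maintain human pluripotent cells in culture.

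Total counts per library were 11385500 to 30499538 for NTera2 and 10585247 to 20257935 for TCam-2. RNA integrity numbers (RIN) were 8.3 or more except in TCam-2 RANKL replicates 2 (6.1) and 4 (3.7), and NTera2 vehicle replicate 1 had none. The lines kept their marker patterns. The summed level of 5 embryonal carcinoma markers (SOX2, DNMT3B, GDF3, TNFRSF8 and LIN28A) was 3406 to 3675 CPM (counts-per-million, scaled to the library) in NTera2 vehicle libraries and 519 to 578 CPM in TCam-2 ones. Another 5 markers, of seminoma, (SOX17, TFAP2C, PRDM1, TFCP2L1 and NANOS3) summed to 25.0 to 28.0 CPM in NTera2 against 1819 to 2057 CPM in TCam-2. The summed level of 5 fibroblast markers was 62.5 to 72.2 CPM in NTera2 against 12.7 to 16.4 CPM in TCam-2, and that of 5 Sertoli, Leydig and endothelial markers was 37.8 to 65.6 CPM and 9.86 to 12.4 CPM. These sums rested on few genes, and not all members were higher in NTera2. COL1A1 and PDGFRB made up the fibroblast sum in NTera2, while COL3A1 had a median of 0 CPM there and 1.81 CPM in TCam-2 over 16 libraries each, and DCN had a median of 0 CPM in both. AMH carried the other NTera2 sum (median 42.4 CPM), whereas INHA (0.72 against 2.17 CPM) and CDH5 (0.53 against 3.29 CPM) were higher in TCam-2 by their medians. Their part in the differences between the lines was not tested. Of 4 immune markers, PTPRC and CD3E were at 0 in the vehicle libraries of both lines, and the sum did not exceed 1.72 CPM. TCam-2 was grown in another medium than NTera2, which was kept in DMEM, so line and medium cannot be told apart. A level in CPM does not tell apart less RNA per cell from a smaller share of expressing cells.

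The main question for these genes was how their levels differed between the lines, which could be asked in 4 sets of libraries that share none. The sets came from the same 4 experiments of each line, so they are not independent repeats. TCam-2 held less FGF2, FGFR1, SPRY2 and DUSP6 mRNA and more FGFR4 and SPRY4 mRNA than NTera2 under every treatment. FGF4 and SPRY1 passed the test under none of the 4 treatments. FGFR2 passed under denosumab, and FGFR3 under RANKL and denosumab, both with small differences. The ligands, the receptors and the feedback inhibitors each held genes that differed and genes for which no difference was called. With edgeR at an adjusted p under 0.05, 6 of the 10 genes passed among vehicle libraries, 2 higher and 4 lower in TCam-2, while 76.2% of the 16816 genes tested passed (37.4% higher and 38.8% lower). The corresponding counts were 7 under RANKL (74.3% of all genes), 6 under OPG (76.2%) and 8 under denosumab (79.7%), so the share of these genes that passed was no larger than or near the background share. All 10 genes passed the filter on low counts in every comparison.

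FGF2, a ligand without a classical secretion signal, stood at 47.9, 46.2, 47.1 and 41.4 CPM in NTera2 vehicle libraries and at 6.01, 5.51, 6.57 and 4.00 CPM in TCam-2 ones. Every NTera2 library lay far above every TCam-2 library, and the same held under RANKL, OPG and denosumab, where NTera2 ranged from 39.2 to 52.1 CPM and TCam-2 from 2.91 to 7.16 CPM. The level was 7.78 to 8.46 times lower in TCam-2 over the 4 treatments, with log2 differences of -3.08 to -2.96 (standard errors (SE) 0.13 to 0.17, edgeR adjusted p at most 7.14513e-12). In TCam-2 vehicle libraries these values rested on 55 to 84 counts each. FGF2 (ENSG00000138685) lies on the plus strand of chromosome 4, at 122826708 to 122898236 in hg38. NUDT6, on the opposite strand, overlaps it and stood at 4.95 ± 0.402 CPM in NTera2 against 5.41 ± 2.30 CPM in TCam-2 (SD, n = 4). The NUDT6 level in TCam-2 was thus close to that of FGF2 there, and since the strand setting of the counting is not given in the sources used here, reads of the pair could not be told apart.

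FGF4 differed from FGF2 in that both lines held it at similar levels. Vehicle libraries stood at 19.9, 15.995, 21.1 and 15.9 CPM in NTera2 against 26.1, 18.2, 14.0 and 15.8 CPM in TCam-2. The TCam-2 range enclosed the NTera2 range. The log2 difference was 0.02 (95% interval -0.35 to 0.40, edgeR adjusted p = 0.914) with vehicle, 0.27 (-0.0023 to 0.54) with RANKL, 0.05 (-0.31 to 0.42) with OPG and 0.27 (0.01 to 0.54) with denosumab. The smallest edgeR adjusted p was 0.0560, under denosumab, so differences of up to about these upper bounds remain possible. This call turned on the filter and on single libraries. Under denosumab FGF4 passed without the filter on low counts (0.32, edgeR adjusted p = 0.0160) and without TCam-2 replicate 3 (0.41, edgeR adjusted p = 0.00443). It also passed there without NTera2 replicate 1 (0.30, edgeR adjusted p = 0.0352) or 2 (0.31, edgeR adjusted p = 0.0495). Under RANKL it passed without TCam-2 replicate 2 (0.31, edgeR adjusted p = 0.0478) or 3 (0.33, edgeR adjusted p = 0.0464). No other alternative fit or left-out library brought it past the threshold.

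The genes around FGF4 did not share its pattern. FGF4 (ENSG00000075388) lies on the minus strand of chromosome 11, at 69771022 to 69775341 in hg38. Within 250 kb, CCND1, which encodes the cell cycle regulator cyclin D1, stood at 266 ± 20.7 CPM in NTera2 against 4.05 ± 1.54 CPM in TCam-2. FGF19, an endocrine FGF, stood at 9.65 ± 1.09 and 0.315 ± 0.183 CPM, and ANO1, a chloride channel gene, at 8.53 ± 1.23 and 2.24 ± 0.746 CPM. LTO1 was the one neighbour above 1 CPM with the higher level in TCam-2, at 23.6 ± 1.29 CPM in NTera2 against 43.9 ± 3.94 CPM in TCam-2. FGF3 had 0.0543 CPM in NTera2 and no counts in TCam-2 vehicle libraries. Of the transcription factors listed with FGF4, SOX2, known to act on it with POU5F1, was at 301 ± 35.5 CPM in NTera2 against 2.52 ± 1.05 CPM in TCam-2. SOX17 went the other way, at 0.0344 ± 0.0406 and 163 ± 26.4 CPM, and NANOG was at 61.5 ± 6.17 and 574 ± 31.6 CPM. POU5F1, whose pseudogenes may share its reads, was at 1326 ± 126 and 2039.6 ± 244 CPM. FGF4 mRNA was measured at similar levels in a line with SOX2 and in a line with little SOX2 mRNA and abundant SOX17 mRNA. Whether any of these factors acts on FGF4 in these lines was not tested. SOX17, NANOG and POU5F1 were higher and SOX2 lower in TCam-2 by the edgeR test.

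FGFR1 was the receptor with the highest mean CPM among vehicle libraries of both lines. In TCam-2 it was close to FGFR3 (238 ± 18.4 against 220 ± 30.9 CPM). FGFR1 stood at 798, 879, 824 and 819.8 CPM in NTera2 vehicle libraries and at 219.7, 226, 260.5 and 244 CPM in TCam-2 ones. The groups were far apart and each was tight. TCam-2 held 3.46 to 3.54 times less over the 4 treatments, with log2 differences of -1.82 to -1.79 (SE 0.05 to 0.07, edgeR adjusted p at most 3.43613e-13). FGFR1 (ENSG00000077782) lies on the minus strand of chromosome 8, at 38400215 to 38468641 in hg38. LETM2 and ENSG00000239218 overlap it, at 1.26 and 1.93 CPM in NTera2 against 0.539 and 0.687 CPM in TCam-2, small against FGFR1 in both lines.

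FGFR4 went the opposite way. Its vehicle libraries stood at 64.4, 72.0, 55.6 and 64.5 CPM in NTera2 against 152, 148, 143 and 158 CPM in TCam-2. The lowest TCam-2 library of all treatments, at 123 CPM with OPG, lay above the highest NTera2 library, at 73.8 CPM with OPG. TCam-2 held 2.15 to 2.63 times more, with log2 differences of 1.10 to 1.40 (SE 0.08 to 0.09, edgeR adjusted p at most 9.04791e-10). FGFR4 (ENSG00000160867) lies on the plus strand of chromosome 5, at 177086905 to 177098022.

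FGFR2 and FGFR3 differed little between the lines. FGFR2 stood at 136, 133, 143 and 133 CPM in NTera2 vehicle libraries and at 116, 114, 131 and 133 CPM in TCam-2 ones, the highest TCam-2 library lying just under the lowest NTera2 one. Its log2 difference ran from -0.21 to -0.09 and passed the edgeR test under denosumab (-0.21, adjusted p = 0.00261). Among vehicle libraries it was -0.15 (SE 0.07, edgeR adjusted p = 0.0731) and crossed the threshold in each alternative fit of all 8 libraries. These were size factors of the relative log expression method (-0.19, edgeR adjusted p = 0.0286), DESeq2 (-0.21, adjusted p = 0.00887), no filter (-0.21, edgeR adjusted p = 0.0390), all 32 libraries in 1 fit (-0.15, edgeR adjusted p = 0.0376) and the replicate block (-0.15, edgeR adjusted p = 0.0400). FGFR2 also passed without TCam-2 vehicle replicate 3 (-0.21, edgeR adjusted p = 0.0322) or 4 (-0.21, edgeR adjusted p = 0.0151). Under OPG the FGFR2 difference was -0.13 (edgeR adjusted p = 0.0946). It passed there with size factors of the relative log expression method (-0.16, edgeR adjusted p = 0.0347) and with DESeq2 (-0.17, adjusted p = 0.0176). Without TCam-2 OPG replicate 3 it passed as well (-0.17, edgeR adjusted p = 0.0367). FGFR3 stood at 185, 216, 181 and 224 CPM in NTera2 vehicle libraries and at 195, 259, 196 and 231 CPM in TCam-2 ones. The groups overlapped widely with vehicle. They separated under denosumab, where NTera2 libraries stood at 143, 183, 169.8 and 167 CPM and TCam-2 libraries at 234, 245, 203 and 203 CPM, a log2 difference of 0.38 (SE 0.08, edgeR adjusted p = 0.000115). Under RANKL the difference was 0.21 (edgeR adjusted p = 0.0205), and without the 2 TCam-2 libraries of low RIN it was 0.16 (edgeR adjusted p = 0.138). FGFR2 (ENSG00000066468) is on chromosome 10 (minus strand, 121478332 to 121598444) and FGFR3 (ENSG00000068078) on chromosome 4 (plus strand, 1793293 to 1808867).

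**Figure D1:**
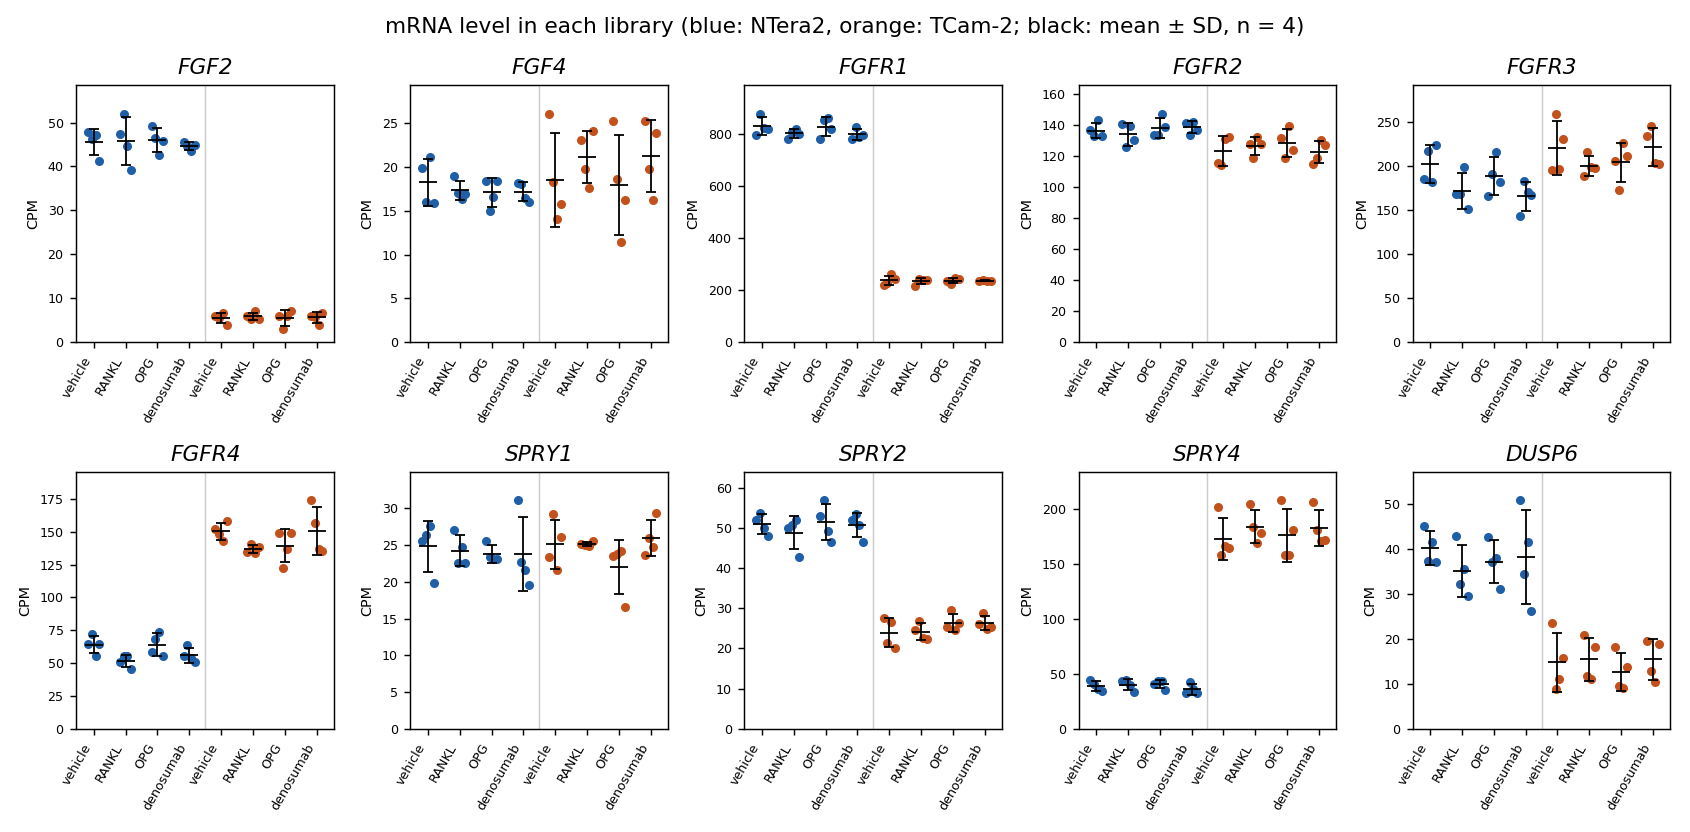
Level of the 10 genes in each of the 32 libraries, in CPM on a linear axis from 0, by line and treatment. Points are libraries and black marks the mean ± SD of 4. FGF2, FGFR1, SPRY2 and DUSP6 sit higher in NTera2, FGFR4 and SPRY4 higher in TCam-2, and within a line the treatments overlap for most genes.

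The receptor mix of the lines, set per kilobase of gene length, therefore differed. By the deposited gene lengths, FGFR1 made up 43.8 ± 1.71% and FGFR3 37.6 ± 2.06% of the summed CPM per kb of the 4 receptors in NTera2 vehicle libraries (SD, n = 4). FGFR4 made up 12.1 ± 0.810% there and FGFR2 6.59 ± 0.606%. In TCam-2, FGFR3 came first with 46.7 ± 3.59%, followed by FGFR4 with 32.3 ± 2.07%, FGFR1 with 14.3 ± 1.55% and FGFR2 with 6.77 ± 0.696%. The ranges of neighbours in this order did not overlap in either line. The sums over the 4 receptors were 110.4 ± 6.62 CPM per kb in NTera2 and 97.1 ± 6.50 CPM per kb in TCam-2, and their ranges did not overlap. The deposited lengths of FGFR1 and FGFR2 are 17201 and 18813 bases, against 6054 and 4369 bases for their longest coding transcripts in GENCODE 29. With those transcripts, added after the data were seen, FGFR1 made up 58.5 ± 1.08% in NTera2 and 23.8 ± 1.86% in TCam-2. FGFR3 stood at 19.4 ± 1.47% in NTera2, so its closeness to FGFR1 there depended on the deposited lengths. FGFR3 and FGFR4 then stood at 30.0 ± 3.24% and 29.2 ± 1.55% in TCam-2 and could not be ordered, and FGFR2 stood at 13.4 ± 0.963% in NTera2 and 17.1 ± 1.25% in TCam-2. The sums with those transcripts were 234 ± 10.1 CPM per kb in NTera2 and 165 ± 7.87 CPM per kb in TCam-2. The size of the difference in the sums thus depended on the length used. FGFR1 came first in NTera2 and FGFR3 and FGFR4 were ahead of FGFR1 in TCam-2 with either length. That order in TCam-2 came with the scaling by length, since FGFR1 had the highest mean CPM there.

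**Figure D2:**
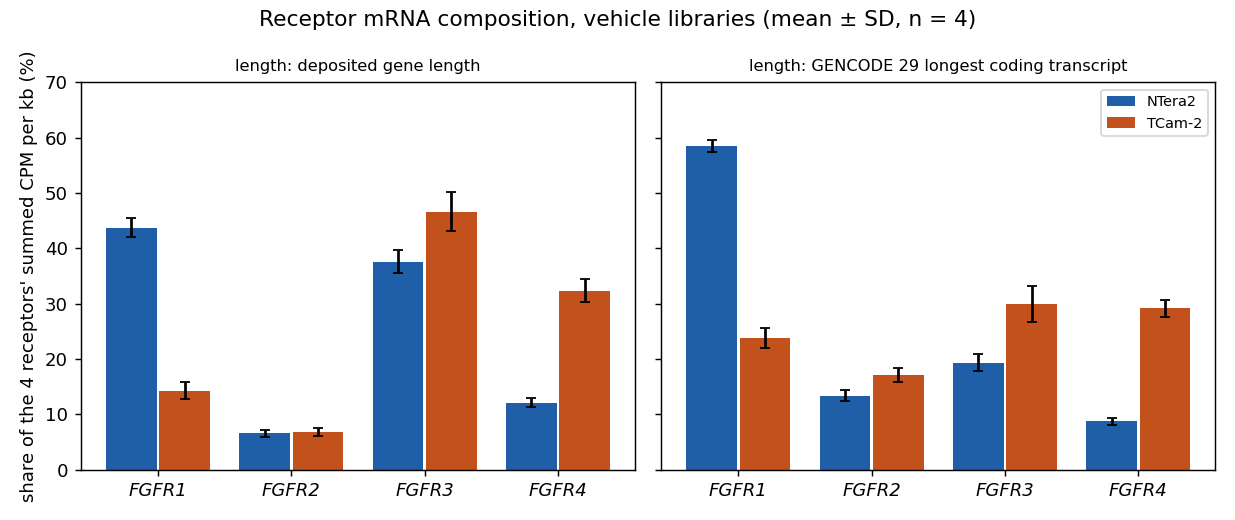
Share of each receptor in the summed CPM per kb of the 4 receptors, vehicle libraries, as mean ± SD of 4, with the deposited gene lengths (left) and the longest coding transcripts of GENCODE 29 (right). The FGFR1 bar is the tallest in NTera2 with both lengths, and the FGFR4 share is higher in TCam-2 than in NTera2.

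Among the feedback inhibitors, SPRY4 and SPRY2 differed in opposite directions. SPRY4 stood at 44.2, 41.1, 36.3 and 34.4 CPM in NTera2 vehicle libraries and at 201, 158, 166 and 165 CPM in TCam-2 ones. Every TCam-2 library was above 150 CPM and every NTera2 library below 45 CPM, under all treatments. The level was 4.26 to 4.97 times higher in TCam-2, with log2 differences of 2.09 to 2.31 (SE 0.09 to 0.10, edgeR adjusted p at most 6.94377e-12). SPRY2 stood at 52.0, 53.6, 49.8 and 47.9 CPM in NTera2 against 27.6, 21.4, 26.5 and 20.2 CPM in TCam-2. The groups did not overlap, and TCam-2 held 1.97 to 2.13 times less, with log2 differences of -1.09 to -0.98 (SE 0.08 to 0.11, edgeR adjusted p at most 1.30354e-07). SPRY1 stood at 25.6, 26.3, 27.6 and 19.8 CPM in NTera2 against 23.4, 29.3, 21.6 and 26.1 CPM in TCam-2. Its groups overlapped almost fully, and the log2 difference with vehicle was 0.01 (95% interval -0.27 to 0.30, edgeR adjusted p = 0.927). Over the 4 treatments it ran from -0.14 to 0.09.

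DUSP6 stood at 45.1, 37.4, 41.5 and 37.2 CPM in NTera2 vehicle libraries and at 23.6, 8.79, 11.03 and 15.8 CPM in TCam-2 ones. The groups did not overlap, although the TCam-2 libraries differed widely among themselves. The level was 2.30 to 2.97 times lower in TCam-2 over the 4 treatments, with log2 differences of -1.57 to -1.20 (SE 0.17 to 0.22, edgeR adjusted p at most 5.88124e-05). ENSG00000274021 overlaps DUSP6 on the other strand, at 3.04 ± 0.577 CPM in NTera2 against 0.496 ± 0.530 CPM in TCam-2. SPRY1 (ENSG00000164056) is on chromosome 4 (plus strand, 123396795 to 123403755), SPRY2 (ENSG00000136158) on chromosome 13 (minus strand, 80335976 to 80341126), SPRY4 (ENSG00000187678) on chromosome 5 (minus strand, 142310427 to 142326455) and DUSP6 (ENSG00000139318) on chromosome 12 (minus strand, 89347235 to 89352497). The order of the feedback genes per kb of deposited length was SPRY2, DUSP6, SPRY1, SPRY4 in NTera2 (15.8, 10.4, 6.26 and 5.95 CPM per kb) and SPRY4, SPRY2, SPRY1, DUSP6 in TCam-2 (26.3, 7.45, 6.33 and 3.84 CPM per kb). In NTera2 the ranges of SPRY1 and SPRY4 overlapped, and in TCam-2 those of SPRY2 with SPRY1 and of SPRY1 with DUSP6 did. Per kb of the GENCODE 29 transcript, SPRY1 moved ahead of DUSP6 in NTera2 (9.51 and 9.16 CPM per kb) and of SPRY2 in TCam-2 (9.62 and 8.84 CPM per kb).

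**Figure D3:**
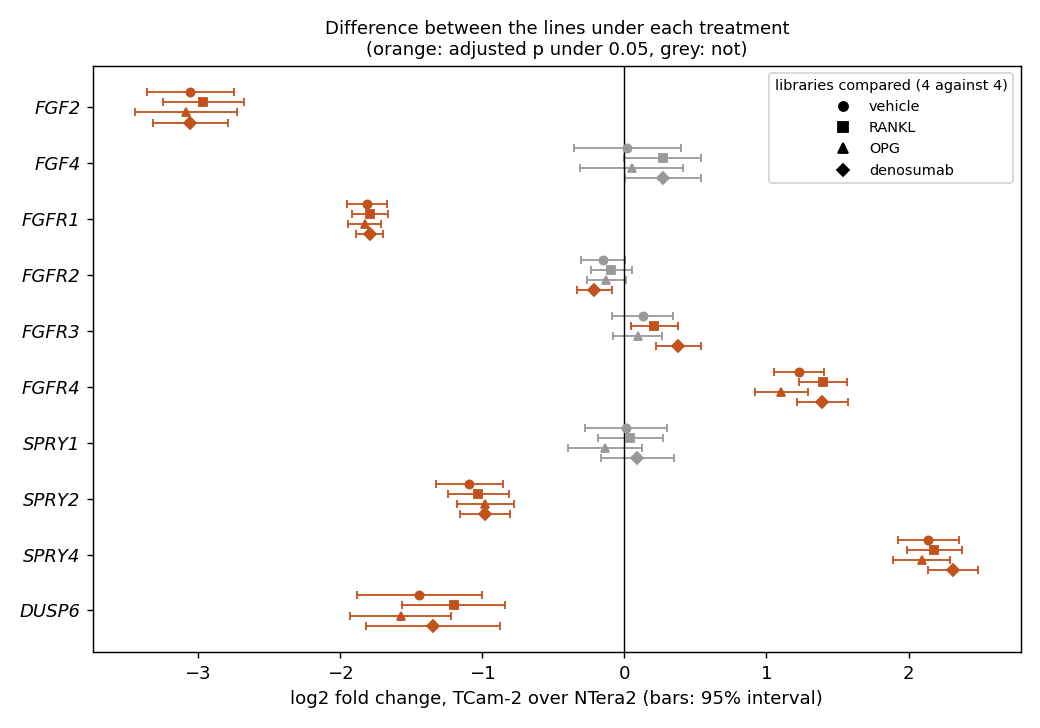
Log2 fold change of TCam-2 over NTera2 for each gene under each of the 4 treatments, with 95% intervals from edgeR, 4 libraries against 4. Orange marks an adjusted p under 0.05. FGF2, FGFR1, SPRY2 and DUSP6 lie left of 0 and FGFR4 and SPRY4 right of 0 in all 4 sets of libraries, while FGF4 and SPRY1 are grey throughout.

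Counting groups that do not overlap, 7 of the 10 genes separated the lines among vehicle libraries (70.2% of all genes tested), 6 under RANKL (68.9%), 6 under OPG (70.9%) and 8 under denosumab (74.6%). The 7 were the 6 genes that passed under every treatment and FGFR2. Direction and side of the threshold held for those 6 genes under each alternative fit tried and each left-out library.

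Start regions are shown for 6 genes: SPRY4, SPRY2 and DUSP6, known targets of ERK that differed between the lines in opposite directions, FGF2, whose difference was the largest of the 10, and FGFR3 and FGFR4, described with the treatments below. Each is 250 bases before the first listed start, from RefSeq on GRCh38.p14, 5′ to 3′ on the gene's strand, with GC boxes (GGGCGG or its reverse complement CCGCCC) in capitals. SPRY4 lies at chr5:142324248-142324497, SPRY2 at chr13:80341127-80341376, DUSP6 at chr12:89352502-89352751, FGF2 at chr4:122826581-122826830, FGFR3 at chr4:1793043-1793292 and FGFR4 at chr5:177086665-177086914. These starts are not all those of the counted genes. The SPRY4 region lies inside the deposited gene, which reaches 142326455 on the minus strand. Those of FGF2 and FGFR4 run past the deposited starts, 122826708 and 177086905. The letters of the 6 regions are given for comparison, and no binding was measured.
SPRY4: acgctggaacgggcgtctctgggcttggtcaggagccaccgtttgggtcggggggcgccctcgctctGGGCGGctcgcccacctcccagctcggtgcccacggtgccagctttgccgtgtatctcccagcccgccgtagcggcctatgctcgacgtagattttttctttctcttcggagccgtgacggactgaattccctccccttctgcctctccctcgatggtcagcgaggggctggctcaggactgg
SPRY2: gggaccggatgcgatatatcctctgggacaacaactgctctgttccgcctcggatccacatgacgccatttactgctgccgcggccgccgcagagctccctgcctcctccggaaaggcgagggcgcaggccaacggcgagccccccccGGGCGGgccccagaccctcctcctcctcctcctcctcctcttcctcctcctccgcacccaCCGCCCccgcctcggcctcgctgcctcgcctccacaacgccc
DUSP6: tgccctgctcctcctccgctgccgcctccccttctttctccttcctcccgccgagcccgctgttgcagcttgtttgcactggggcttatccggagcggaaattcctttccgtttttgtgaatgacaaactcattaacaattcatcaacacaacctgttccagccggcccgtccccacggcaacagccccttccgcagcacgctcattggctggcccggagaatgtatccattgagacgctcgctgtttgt
FGF2: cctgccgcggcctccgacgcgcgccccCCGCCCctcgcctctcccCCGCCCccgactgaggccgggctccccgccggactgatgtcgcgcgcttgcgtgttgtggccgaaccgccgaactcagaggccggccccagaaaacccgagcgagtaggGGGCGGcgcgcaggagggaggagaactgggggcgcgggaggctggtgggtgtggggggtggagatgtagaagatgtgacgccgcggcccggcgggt
FGFR3: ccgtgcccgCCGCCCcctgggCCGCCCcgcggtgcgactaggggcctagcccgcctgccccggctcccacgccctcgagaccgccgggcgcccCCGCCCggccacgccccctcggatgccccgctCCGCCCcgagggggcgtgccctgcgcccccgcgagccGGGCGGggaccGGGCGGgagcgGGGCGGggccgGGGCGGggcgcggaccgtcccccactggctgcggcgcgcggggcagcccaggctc
FGFR4: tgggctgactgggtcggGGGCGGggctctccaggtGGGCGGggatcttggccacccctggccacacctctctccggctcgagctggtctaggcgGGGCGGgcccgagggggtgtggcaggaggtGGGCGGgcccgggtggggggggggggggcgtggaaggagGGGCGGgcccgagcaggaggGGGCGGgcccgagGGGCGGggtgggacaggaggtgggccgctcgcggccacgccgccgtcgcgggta

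Of the 10 genes, 8 had an entry in the promoter table. FGF4 and FGFR1 had none, so no motif was searched for them. Motifs were searched on both strands as exact letters. They were the ETS site CCGGAAGT, AP-1 TGACTCA, the cyclic AMP response element TGACGTCA, the octamer ATGCAAAT, the SOX motif ACAATG and the GC box. Shorter or variant forms, such as GGAA alone for ETS, were not searched. ETS and AP-1 letters bind factors that ERK is known to activate. The ETS, AP-1, cyclic AMP, octamer and SOX letters matched exactly in 3.42%, 4.20%, 1.65%, 1.63% and 9.29% of all 35116 promoters of this length. No such match occurred in the 8 genes with an entry. GC boxes occurred in 42.6% of all promoters. The FGFR3 sequence held 8 and the FGFR4 sequence 7, and 0.584% and 1.12% of promoters held at least that many. FGF2 held 3, SPRY2 2, SPRY4 1 and DUSP6 none. The FGFR3 stretch was 86.8% and the FGFR4 stretch 79.6% G or C, against a median of 58.0% over all promoters, while DUSP6 was at 57.2%.

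Other genes of the pathway were read from 6 lists among vehicle libraries. Of 15 other feedback inhibitors and dual-specificity phosphatases, 12 were lower and 2 higher in TCam-2, where 38.8% of all genes tested were lower and 37.4% higher. The median log2 difference was -0.84 against -0.01 over all genes. The lower ones numbered 9 under RANKL, 11 under OPG and 12 under denosumab, with 2 higher each time. Of all genes tested, 6262 of 16992 were lower and 6366 higher under RANKL. The all-gene counts were 6724 lower and 6274 higher of 17059 under OPG, and 6665 lower and 6586 higher of 16633 under denosumab. The lower ones included DUSP2, a nuclear ERK phosphatase, at 10.9 ± 1.13 CPM in NTera2 against 0.0663 ± 0.0885 CPM in TCam-2. SPRED3, a Sprouty-related gene, stood at 11.2 ± 0.507 and 2.47 ± 0.700 CPM, and DUSP16, which acts on JNK, at 198 ± 8.94 and 54.3 ± 7.05 CPM. The 2 higher ones were SPRED2 (27.1 ± 1.28 CPM in NTera2 against 103 ± 8.86 CPM in TCam-2) and ERRFI1 (62.4 ± 4.63 and 186 ± 26.8 CPM), which inhibits EGF receptors. Among vehicle libraries the counts of this list were 12 and 2 in each alternative fit as well.

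Of 14 tested transcripts known to be induced by ERK, 6 were higher and 7 lower in TCam-2. This split was near even, like that of all genes (37.4% and 38.8%), and the median was -0.23. It depended on the fit. With all 16 transcripts tested, 6 were higher and 9 lower without the filter (median -0.71). DESeq2 (-0.72) and the fit of all 32 libraries (-0.65) each gave 6 higher and 8 lower. The higher ones included the immediate early genes EGR1 (11.03 ± 0.906 and 88.6 ± 5.51 CPM in NTera2 and TCam-2), IER3 (13.1 ± 1.10 and 66.7 ± 12.8 CPM) and FOS (9.46 ± 1.45 and 29.9 ± 10.0 CPM). CCND1, already described, and the ephrin receptor genes EPHA2 (73.6 ± 5.91 and 2.01 ± 0.844 CPM) and EPHA4 (24.2 ± 0.427 and 1.81 ± 0.620 CPM) were lower. Of 23 adaptors and members of the RAS-ERK cascade, 12 were higher and 5 lower, so 17 of 23 passed where 76.2% of all genes did, a share near the background. The median was 0.29 and stayed above 0 under each alternative fit. The counts were 9 higher and 6 lower with DESeq2, and 11 or 12 higher and 5 lower in the other fits. NF1, which encodes a RAS inhibitor, was at 32.7 ± 3.48 CPM in NTera2 against 128 ± 27.1 CPM in TCam-2, and HRAS at 60.6 ± 5.31 and 148 ± 26.1 CPM; both were higher in TCam-2. The RAF kinase gene BRAF (19.98 ± 1.30 and 10.6 ± 2.16 CPM), NRAS (151 ± 3.94 and 81.7 ± 4.32 CPM) and the adaptor gene SHC1 (204 ± 13.8 and 117 ± 12.6 CPM) were lower in TCam-2.

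Of 24 tested coreceptors, FGF-binding proteins and heparan sulfate genes, 8 were higher and 12 lower in TCam-2, so 20 of 24 passed where 76.2% of all genes did, and the median was -0.28. The syndecan SDC2 (35.6 ± 0.510 and 414 ± 12.1 CPM in NTera2 and TCam-2), ANOS1, an extracellular protein that modulates FGF signalling (53.8 ± 4.00 and 554 ± 70.4 CPM), and the sulfatase SULF1 (7.004 ± 1.03 and 50.2 ± 6.87 CPM) were higher. FLRT3, a membrane protein that binds FGF receptors (28.0 ± 2.02 and 0.564 ± 0.492 CPM), FGFBP3 (107 ± 10.98 and 2.85 ± 0.950 CPM) and the glypican GPC2 (27.3 ± 3.05 and 1.48 ± 0.276 CPM) were lower. Only 4 of 20 other FGF ligands passed the filter. FGF16 (0.467 ± 0.101 and 25.6 ± 0.694 CPM) and FGF13, which stays inside the cell (3.26 ± 0.219 and 136 ± 6.97 CPM), were higher and FGF19 was lower. The median of this list was 2.63 and turned to -2.25 without the filter, when all 20 were tested and 2 were higher and 7 lower. It was also below 0 with DESeq2 (2 higher and 6 lower) and in the fit of all 32 libraries (2 higher and 4 lower).

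The second question was whether the genes moved with RANKL, OPG or denosumab within a line. No change was called in any of the 100 tests (10 genes, 10 comparisons of a treatment with vehicle or of an inhibitor with RANKL). The smallest edgeR adjusted p was 0.368, and the log2 differences lay between -0.30 and 0.31. DESeq2 and edgeR with the experiment as a block called none of the 10 genes either, whereas leaving out the filter on low counts gave 1 call each for FGFR4 and FGFR3, described next. Across all genes edgeR called 0% in each of these comparisons. At an unadjusted p under 0.05 there were 5 of 100, all of them FGFR3 or FGFR4.

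FGFR4 gave the smallest p values. It stood at 64.4, 72.0, 55.6 and 64.5 CPM in NTera2 vehicle libraries, 50.8, 55.2, 55.4 and 45.5 CPM with RANKL, 58.5, 68.6, 73.8 and 55.6 CPM with OPG and 55.5, 64.1, 53.8 and 50.7 CPM with denosumab. All RANKL libraries lay below all vehicle and all OPG libraries, each pair of groups being close at the edge, and RANKL was the lower of the pair in 4 of 4 experiments. The log2 difference of RANKL from vehicle was -0.30 (95% interval -0.48 to -0.11, edgeR adjusted p = 0.368). That of OPG from RANKL was 0.31 (0.12 to 0.49, edgeR adjusted p = 0.913), and these comparisons share the RANKL libraries. Without the filter on low counts, the difference of RANKL from vehicle passed (-0.30, edgeR adjusted p = 0.0469). In TCam-2, FGFR4 stood at 152, 148, 143 and 158 CPM with vehicle and 135, 141, 134 and 138 CPM with RANKL. These groups did not overlap either, and the log2 difference was -0.16 (-0.33 to -0.00088, edgeR adjusted p = 0.559), and -0.19 (edgeR adjusted p = 0.370) without the libraries of low RIN.

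FGFR3 stood at 185, 216, 181 and 224 CPM in NTera2 vehicle libraries, 168, 168, 199 and 151 CPM with RANKL and 143, 183, 169.8 and 167 CPM with denosumab. Denosumab was the lower of the pair in 4 of 4 experiments and RANKL in 3, and the groups overlapped. The log2 difference was -0.22 (-0.39 to -0.04, edgeR adjusted p = 0.422) with RANKL and -0.27 (-0.45 to -0.10, edgeR adjusted p = 0.420) with denosumab, and the latter passed without the filter on low counts (-0.28, edgeR adjusted p = 0.00656). In TCam-2 the FGFR3 differences were -0.17 with RANKL, -0.13 with OPG and -0.03 with denosumab. The difference between the lines in the denosumab effect was 0.29 (0.01 to 0.56, edgeR adjusted p = 0.950), and none of the 30 interaction tests of line and treatment was called (0% of all genes), this being the only one of the 30 with an unadjusted p under 0.05. Across all genes the interactions had an unadjusted p under 0.05 in 5.22% with RANKL, 5.2% with OPG and 4.78% with denosumab.

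Read against the background, 2 of the 10 genes had an unadjusted p under 0.05 in NTera2 with RANKL, where 10.3% of all genes did. The count was 1 of 10 in NTera2 with denosumab (7.25% of all genes), 1 in NTera2 OPG against RANKL (5.01%) and 1 in TCam-2 with RANKL (8.92%). None did in the other 6 comparisons: NTera2 OPG (1.68% of all genes), NTera2 denosumab against RANKL (4.36%), TCam-2 OPG (8.68%), TCam-2 denosumab (6.56%), TCam-2 OPG against RANKL (5.14%) and TCam-2 denosumab against RANKL (0.933%). Groups that did not overlap were found for FGFR4 in NTera2 with RANKL (3.89% of all genes), in NTera2 OPG against RANKL (2.73%) and in TCam-2 with RANKL (2.76%), and for SPRY1 in TCam-2 OPG against RANKL (2.58%). No other such separation was found, the shares of all genes being 2.05% and 3.46% in NTera2 with OPG and denosumab, 2.92% and 3.44% in TCam-2 with the same agents, and 1.99% and 1.74% for denosumab against RANKL in NTera2 and TCam-2.

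Genes with transcripts of similar G and C content to FGFR3 and FGFR4 also had median differences from vehicle below 0. The longest coding transcripts of FGFR3 and FGFR4 in GENCODE 29 are 62.0% and 63.6% G or C. In NTera2 with RANKL, the median log2 difference of tested genes within 2 percentage points was -0.15 for FGFR3 and -0.18 for FGFR4, leaving -0.07 and -0.11 of their differences. With denosumab these medians were -0.14 and -0.18, leaving -0.14 and -0.01. In TCam-2 with RANKL they were -0.13 and -0.15, leaving -0.04 and -0.01. In NTera2 OPG against RANKL the median was 0.11 for FGFR4, leaving 0.19 of its 0.31. The NTera2 OPG libraries showed the smallest such medians of that line against vehicle, -0.06 and -0.07. The part of G and C content in these values was not tested beyond this subtraction, which was added after the data were seen.

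**Figure D4:**
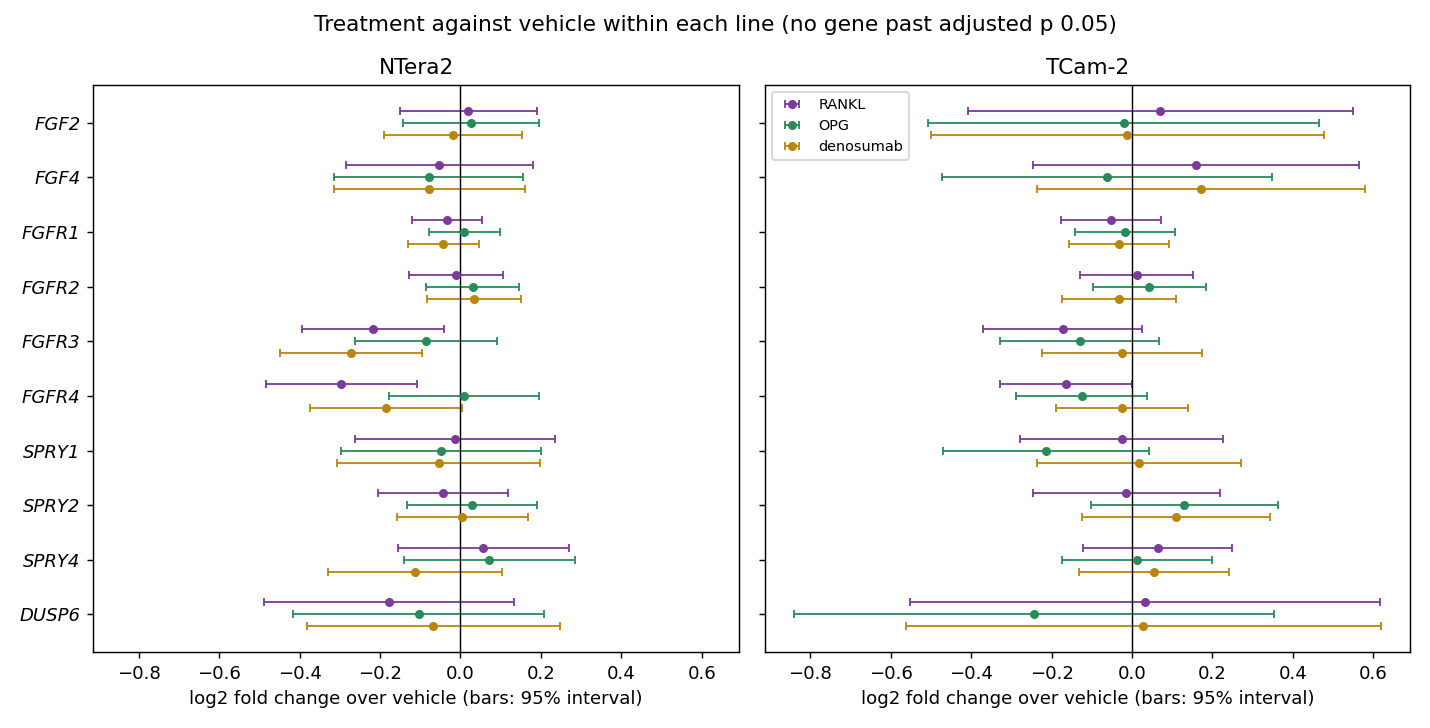
Log2 fold change over vehicle of the 10 genes with RANKL, OPG and denosumab in each line, with 95% intervals from edgeR on the 16 libraries of the line. No value passed an adjusted p of 0.05, FGFR3 and FGFR4 lie lowest in NTera2 with RANKL or denosumab, and the intervals are widest for DUSP6, FGF2 and FGF4 in TCam-2.

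For the other genes the 95% intervals give the range of differences compatible with the fit without the experiment as a block. They are per gene and not adjusted for the number of genes tested. They therefore do not give the size of difference that the test could have called. Spread between experiments is part of them, and intervals of the fit with the block are not given here. Against vehicle, the 95% intervals of FGFR1 over the 3 treatments lay within -0.13 and 0.10 in NTera2 and within -0.18 and 0.11 in TCam-2. Those of FGFR2 lay within -0.13 and 0.15, and within -0.17 and 0.18. SPRY4 was bounded by -0.33 and 0.29 in NTera2 and by -0.17 and 0.25 in TCam-2, and SPRY2 by -0.20 and 0.19, and by -0.25 and 0.36. SPRY1 intervals reached from -0.31 to 0.23 in NTera2, and in TCam-2 from -0.47 to 0.27. The widest were those of DUSP6 in TCam-2, from -0.84 to 0.62. FGF2 and FGF4 in TCam-2 reached from -0.51 to 0.55 and from -0.47 to 0.58, while in NTera2 they stayed within -0.19 and 0.20 and within -0.31 and 0.18. None of the genes of the 6 lists was called in any treatment comparison either.

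DUSP6 and SPRY4 in TCam-2 were highest in the same experiment under every treatment, and FGF4 under every treatment but RANKL. The share of all genes with such a pattern was not counted, so it cannot be called particular to these genes. TCam-2 DUSP6 stood at 23.6, 8.79, 11.03 and 15.8 CPM with vehicle, 20.9, 11.9, 11.03 and 18.2 CPM with RANKL, 18.2, 9.51, 9.11 and 13.7 CPM with OPG and 19.5, 12.8, 10.4 and 19.0 CPM with denosumab. Under each treatment the experiment at passage 118 was highest and that at passage 122 next, and those at passages 120 and 121 were lowest. By passage the DUSP6 mean over the 4 treatments was 20.6 ± 2.29, 10.7 ± 1.92, 10.4 ± 0.907 and 16.7 ± 2.40 CPM (SD over 4 libraries). FGF4 in TCam-2 stood at 24.9 ± 1.32, 19.1 ± 0.775, 14.8 ± 2.66 and 19.98 ± 4.58 CPM in the same order of passages, and its libraries of passage 122 alone ran from 15.8 to 24.0 CPM. SPRY4 stood at 205 ± 2.80, 170 ± 14.1, 166 ± 5.85 and 174 ± 7.07 CPM, with all 4 libraries of passage 118 above all others. In NTera2 the DUSP6 means were 45.4 ± 3.77, 35.3 ± 2.48, 39.2 ± 2.89 and 31.1 ± 4.56 CPM, and the SPRY4 means lay between 33.8 and 42.8 CPM.

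**Figure D5:**
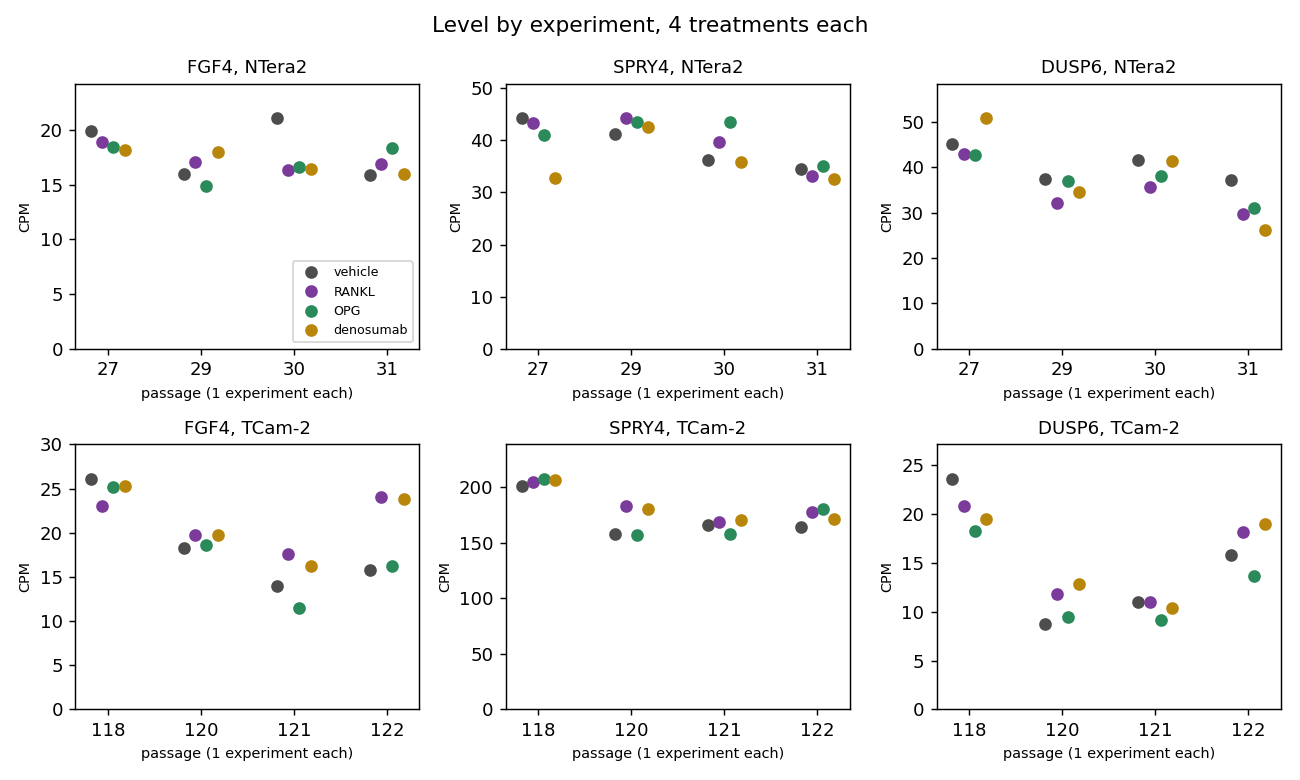
Level of FGF4, SPRY4 and DUSP6 in CPM by passage, which marks the experiment, with 1 point per treatment. In TCam-2 the 4 points at passage 118 are the highest for SPRY4, and DUSP6 is lower at passages 120 and 121 than at 118 and 122 under every treatment.

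After subtracting the mean of each treatment group, log2 CPM of SPRY4 and DUSP6 correlated at r = 0.81 over the 16 TCam-2 libraries, FGF4 and DUSP6 at 0.77 and FGF4 and SPRY4 at 0.73. These are descriptions: libraries of an experiment share passage and handling, so the 16 are not independent. In NTera2 SPRY4 and DUSP6 were at 0.30, whereas SPRY1 and DUSP6 were at 0.76, SPRY2 and SPRY4 at 0.75 and FGFR4 and SPRY4 at 0.73. Apart from that 0.30, these are the largest r between the followed genes in each line. The lowest in TCam-2 were FGF4 with FGFR1 at -0.61 and with FGFR2 at -0.53. In NTera2 they were FGF4 with FGFR3 at -0.59 and with FGFR1 at -0.57. Among all genes of at least 10 CPM, PXDN, which encodes a peroxidase of the extracellular matrix, was the one most like SPRY4 in both lines (r = 0.92 in NTera2 and 0.94 in TCam-2). PDZD4 and TRERF1 came next in NTera2 (0.91 and 0.88), and PPP1R16B and KIF3C in TCam-2 (0.93 and 0.92).

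DUSP6 was most like KARS1, WBP11 and BAZ1A in NTera2 (r = 0.89, 0.87 and 0.85) and SLC39A8, CYB5R1 and GMCL1 in TCam-2 (0.91, 0.86 and 0.86). For FGF4 they were CDC42BPA, MFSD14C and MYO9A in NTera2 (0.92, 0.86 and 0.85) and FBN2, IGF1 and UBE2J1 in TCam-2 (0.89, 0.89 and 0.89). SPRY2 was closest to ADD2, SEPHS1 and ARAP3 in NTera2 (0.91, 0.90 and 0.90) and to PPM1B, KIF20A and PWP1 in TCam-2 (0.82, 0.80 and 0.80). FGFR1 had VAT1 and TMED9 as its closest in NTera2 (0.94 and 0.93) and DUS2, TBCD and SURF1 in TCam-2 (0.90, 0.88 and 0.88). FGF2 was compared in NTera2 alone, since it was under 10 CPM in TCam-2, and was closest to B3GALT5, PNMA2 and AFDN (0.93, 0.93 and 0.91). Of the 5 genes compared in both lines (DUSP6, SPRY2, SPRY4, FGF4 and FGFR1), SPRY4 alone shared a gene, PXDN, among its 3 closest in the lines.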

How the data were processed

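Polyadenylated RNA was sequenced as paired 52-bp reads from stranded libraries, per the labels' protocols. Per the submitters' processing notes the authors used bcl2fastq 2.20.0, STAR 2.7.9a, featureCounts 1.6.2 and GRCh38/hg38. The deposited table holds raw read counts per gene and a gene length in bases, a value of another kind. The annotation release and the strand setting are not given in the sources used here.

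Counts were filtered (filterByExpr), scaled (TMM) and fitted with edgeR 4.0.16 under R 4.3.3 (robust quasi-likelihood test, Benjamini-Hochberg over all genes tested, threshold 0.05): 8 libraries per line comparison, 16 per line for treatments, 32 for interactions. CPM used TMM factors over all 32 libraries. Alternatives were size factors of the relative log expression method, no filter, DESeq2 1.42.0, a replicate block, all 32 libraries, leaving out libraries and, after the data were seen, subtracting the median of genes of like G and C content and other lengths. Likeness used log2 CPM with a prior count of 2. The scripts were tested on simulated counts. Pairs of libraries of a group differed beyond counting noise (chi-square per degree of freedom 2.70 to 19.6). No column of the table was left out.

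The replicate number marks a passage, and so an experiment, within a line. Same-numbered libraries of a line deviated together (median r 0.217 in NTera2 and 0.144 in TCam-2 over genes, against -0.0986 and -0.0482 for other pairs). Across lines the number pairs nothing.

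The genes, lists and tests were chosen with earlier results of these data known. Named beside the 10 genes are, per list, up to 3 genes per direction past the threshold with the largest log2 difference among those of at least 10 CPM in a line, genes overlapping one of the 10 or within 250 kb of FGF4 at 1 CPM or more, and the 3 most alike per line for DUSP6, SPRY2, SPRY4, FGF2, FGF4 and FGFR1. FGF19 falls under the neighbour rule, and FGF3, below it, was named after its values were seen. Some genes that these rules pick are not reported here.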

Additional observations from a re-analysis of the deposited data

Results flagged for a closer look

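A library stood apart from the other 3 of its group in 2 of the 80 groups tested (10 genes in 8 groups), judged by its gap to the nearest library over the whole range of the group. Chance alone gives this in about 1 of 20 groups. Both concerned SPRY1 with OPG. In NTera2, replicate 1 was high at 25.5 CPM, against 23.1 to 23.4 CPM in the others, a small step in absolute terms. In TCam-2, replicate 4 was low at 16.5 CPM, against 23.5 to 24.1 CPM in the others.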

How the results depend on the processing

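The 6 genes that differed between the lines under every treatment did so under each alternative run. Without the filter on low counts, FGFR4 passed in NTera2 with RANKL (-0.30, edgeR adjusted p = 0.0469) and FGFR3 in NTera2 with denosumab (-0.28, edgeR adjusted p = 0.00656), so 1 of the 10 genes was called in each, from 0. Calls among all genes, 0 in each treatment and interaction comparison by edgeR as fitted, became without the filter 176 in NTera2 with RANKL, 237 with denosumab and 1 in OPG against RANKL. In TCam-2 they became 51 with RANKL, 54 with OPG, 28 with denosumab, 3 in OPG against RANKL and 1 in denosumab against RANKL, and 1, 3 and 32 for the interactions with RANKL, OPG and denosumab. DESeq2 gave 16 in NTera2 with denosumab, 1 in TCam-2 with RANKL, 6 in TCam-2 with OPG and 1 for the RANKL interaction. The replicate block gave 30 in NTera2 with denosumab, 2 in TCam-2 with denosumab and 1 for the denosumab interaction, and called none of the 10 genes in a treatment. Across lines, where it pairs nothing, it brought FGFR2 past the threshold with vehicle (-0.15, edgeR adjusted p = 0.0400). The cause of these shifts was not tested. Leaving out 1 library at a time gave 6 to 7, 6 to 8, 6 to 7 and 8 to 10 of the 10 genes in the line comparisons with vehicle, RANKL, OPG and denosumab, and 0 in all others. Among all genes it gave 12425 to 13021, 12356 to 12852, 12750 to 13301 and 13118 to 13787 for the lines. It gave 0 to 29 in NTera2 with denosumab (calls came without vehicle or denosumab replicate 3), and 0 to 1 in TCam-2 with RANKL (without RANKL replicate 1 or vehicle replicate 4), OPG (without vehicle replicate 3) and denosumab (without vehicle replicate 1). Of 2560 recomputed values of the 10 genes, 19 newly passed the threshold and 8 no longer did, all 8 FGFR3 between the lines under RANKL, and no called value changed direction. SPRY1 passed between the lines under denosumab without NTera2 denosumab replicate 1 (0.24, edgeR adjusted p = 0.0310). Counting depth was low for FGF2 in TCam-2, where a library held as few as 42 counts.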
